A study of Mus musculus with 2 samples.

Results

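Mir320, Mir484 and Mir877 are microRNA genes whose hairpins are made without the nuclear enzyme Drosha. They were chosen by how their precursors are known to be processed, and their rows were found by matching Ensembl gene identifiers to GENCODE M21. All 3 were present among the 2202 microRNA genes counted. The files hold 2 microRNA sequencing libraries of inserts under 30 nt from gastrocnemius, which is a muscle of the calf, taken from male B6CASTF1/J mouse pups at 4 days of age. The labels number the libraries as biological replicates 1 and 2 of 1 group, from animals numbered 3 and 4 with separate biosamples but a shared donor identifier. No treatment, transgene or second condition is given, so the design compares these libraries with each other and the genes with one another.

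A canonical microRNA is cut out of a long primary transcript by Drosha and its partner Dgcr8, exported by exportin 5 and cut again by Dicer. The precursors of Mir320 and Mir484 skip the first cut. Transcription starts at the hairpin's own 5′ end, so the precursor carries a 7-methylguanosine cap, and export runs through exportin 1. Mir877 is a mirtron, a whole short intron that the spliceosome removes and that folds into a Dicer substrate after debranching. All of these genes are broadly expressed.

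The sequences show how the mirtron and a capped gene differ in their ends. RefSeq (GRCm38.p6, the assembly also called mm10) gave sequences for 2 of the 3 genes, Mir484 and Mir877. The mature forms are printed 5′ to 3′ with the seed, bases 2 to 8 that pair with targets, in capitals.
mmu-miR-484: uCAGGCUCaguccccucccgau
mmu-miR-877-5p: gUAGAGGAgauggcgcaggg
mmu-miR-877-3p: uGUCCUCUucucccuccuccca
The seeds of these 3 mature forms differed, and none was shared with a mature form of another gene among the 1679 mature names in the RefSeq table. Neither strand of any other RefSeq hairpin contained one of these mature sequences (0 of the other hairpins for each). The mature forms were rich in G and C, at 63.6% for miR-484, 65.0% for miR-877-5p and 59.1% for miR-877-3p. The median over all mature names was 52.2%.

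The hairpin of Mir877 has the letters of an intron at both ends. It is shown beside that of Mir1981, the mirtron with the most reads in replicate 1, with the first 2 and last 2 bases of each in capitals.
Mir877 hairpin: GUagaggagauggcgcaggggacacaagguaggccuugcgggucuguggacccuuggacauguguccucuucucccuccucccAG
Mir1981 hairpin: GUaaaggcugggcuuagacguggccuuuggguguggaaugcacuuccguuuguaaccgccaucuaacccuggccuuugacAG
Both start with GU and end with AG, the bases that mark the 5′ and 3′ splice sites. Of 1005 hairpins in the RefSeq table, 30 (2.99%) did so. The miR-877-5p arm begins at the first base of the hairpin, and the miR-877-3p arm ends at base 84 of 85, next to the last base of the intron.

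The hairpin of Mir484 has neither end. It is shown with its mature form, bases 5 to 26 of 67, in capitals.
Mir484 hairpin: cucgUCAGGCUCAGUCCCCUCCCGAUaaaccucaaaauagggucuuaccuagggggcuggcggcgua
RefSeq names 1 mature form for Mir484, on the 5′ side, as for 380 of the 1058 genes with mature entries (35.9%). The deposited counts are per gene, so reads of the arms of Mir877 were not separated.

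The annotation placed the capped genes next to starts of other genes. Mir320 lies on the plus strand of mm10 chromosome 14 at 70443510 to 70443591 (82 nt), in no annotated gene. Its 5′ end is 63 nt from the start of Polr3d, a subunit gene of RNA polymerase III that is transcribed the other way. Mir484 lies on the plus strand of chromosome 16 at 14159626 to 14159692. Its 5′ end is 359 nt from a start of Marf1, which also runs the other way. Marf1 encodes a regulator of RNA in oocytes. Another Marf1 transcript spans Mir484 on the opposite strand, and its exon 2 covers the last 19 nt of the hairpin, past the mature form. Neither gene had an antisense read in either library.

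Mir877 lies on the minus strand of chromosome 17 at 35960730 to 35960814 and coincides at both ends with intron 12 of 22 of an Abcf1 transcript. Abcf1 encodes a protein of the ATP-binding cassette family with a role in translation initiation. Exon 12 ends at the base before the hairpin and exon 13 begins at the base after it. At 85 nt the intron is the fourth shortest of the transcript, whose shortest intron has 78 nt. Of the 2202 genes counted, 21 coincide at both ends with an annotated intron on their own strand. No microRNA gene was annotated within 10 kb of any of the 3 genes.

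**Figure D1:**
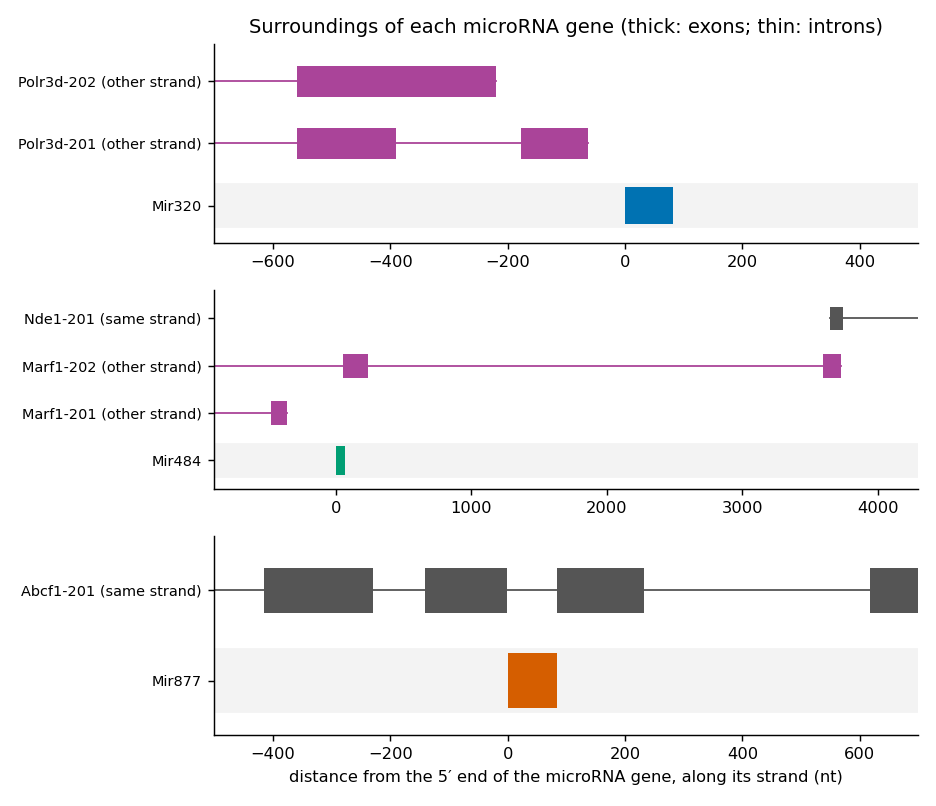
Exons (thick) and introns (thin) of nearby protein-coding transcripts around each microRNA gene, on a scale of nt from the microRNA gene's 5′ end along its own strand. Mir320 and Mir484 begin 63 and 359 nt from starts that point the other way (purple), while Mir877 fills the gap between 2 Abcf1 exons on its own strand (grey).

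The libraries themselves stood far apart. Of 8522350 reads in replicate 1 and 7240126 in replicate 2, 4458853 and 3073086 were assigned to microRNA genes in the sense direction. Mir206, which is restricted to skeletal muscle, had 652657 reads in replicate 1 and 101 in replicate 2. Mir133b, its neighbour, had 427 and 10. Mir208a, restricted to the heart, had 59 and 29718. The defining marker of the labelled tissue was thus near 0 in replicate 2, which goes against the tissue on the label of replicate 2. Each library is called here by its label, and the means and ratios below describe 2 libraries that may not be replicates of 1 tissue. With the threshold given below, 10 of the 13 cell type markers differed, 5 higher and 5 lower in replicate 2 with TMM sizes, against 17.6% and 36.1% of all tested genes. The blood and immune markers Mir451a, Mir144, Mir150 and Mir155 were higher in replicate 2, Mir223 and the fibroblast markers Mir199b and Mir214 were lower. The vessel markers Mir126a, Mir143 and Mir145a were not called. With DESeq2 size factors 7 markers were higher and 4 lower, against 24.6% and 31.0% of all tested genes, with Mir126a and Mir145a called higher and Mir223 not called. In bulk tissue, fewer cells of a type and less RNA per cell cannot be told apart. The part of these markers in the results below was not tested.

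Mir320 had 2264 sense reads in replicate 1 and 4503 in replicate 2. Scaled to 1000000 sense microRNA reads (CPM), this is 508 (95% counting interval 487 to 529) and 1465 (1423 to 1509). The gene was 112th and 54th among all genes by reads. Replicate 2 was the higher library on this scale, and the counting intervals did not overlap. Differences between the libraries were common. With total reads as library sizes, 32.9% of 410 tested genes were called higher in replicate 2 and 28.0% lower, by the threshold given below. The totals behind CPM include 68 genes, described below, that held 47.6% of the microRNA reads of replicate 1 and 0.976% of replicate 2.

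Mir484 had 3276 and 5695 sense reads. Its level was 735 CPM (710 to 760) in replicate 1 and 1853 CPM (1805 to 1902) in replicate 2, at ranks 94 and 50. As for Mir320, replicate 2 was higher on this scale and the intervals did not overlap, against the same shares over all tested genes.

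Mir877 was the rarest of the 3, with 146 reads in replicate 1 and 101 in replicate 2. Its level was 32.7 CPM (27.6 to 38.5) and 32.9 CPM (26.8 to 39.9), at ranks 217 and 204. The intervals overlapped almost entirely, and neither library was higher on this scale.

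The order of the levels was Mir484, Mir320, Mir877 in both libraries. Over the pair of libraries the mean was 1294 ± 791 CPM (SD, n = 2) for Mir484, 987 ± 677 CPM for Mir320 and 32.8 ± 0.0864 CPM for Mir877. The SD of Mir877 is far smaller than the width of its counting intervals, 27.6 to 38.5 and 26.8 to 39.9 CPM. With n = 2 it does not measure how reproducible the level is. Mir484 and Mir320 were both higher in replicate 2, so their spread holds the difference between the libraries and cannot weigh one gene against the other. Within each library their counting intervals did not overlap, with Mir484 the higher. Mir877 lay below both in each library. A small RNA read is a whole mature molecule, so levels were not divided by length. Divided by the length of the hairpin, the order was the same, with 11.0, 6.19 and 0.385 CPM per nt in replicate 1 and 27.7, 17.9 and 0.387 CPM per nt in replicate 2. Together the 3 genes held 0.128% of the microRNA reads of replicate 1 and 0.335% of replicate 2.

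**Figure D2:**
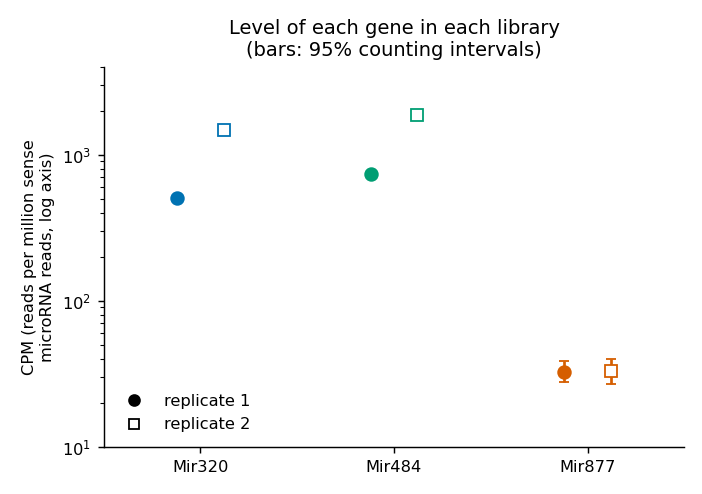
Level of each gene in each library in CPM on a log axis, with filled circles for replicate 1, open squares for replicate 2 and bars for 95% counting intervals. Mir320 and Mir484 lie at 508 and 735 CPM in replicate 1 and at 1465 and 1853 CPM in replicate 2, while Mir877 lies at 32.7 and 32.9 CPM.

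Against one another, the genes needed no library scaling. The capped genes were close in proportion, with 0.691 Mir320 reads for each Mir484 read in replicate 1 and 0.791 in replicate 2. This is a log2 odds ratio of 0.19 (95% interval 0.10 to 0.29), with an adjusted p of 6.9e-05 by Fisher's exact test over 3 pairs. Mir320 reads were 15.5 times those of Mir877 in replicate 1 and 44.6 times in replicate 2, a log2 odds ratio of 1.52 (1.14 to 1.91, adjusted p of 3.0e-15 by Fisher's exact test). For Mir484 the multiples of Mir877 were 22.4 and 56.4, a log2 odds ratio of 1.33 (0.95 to 1.72, adjusted p of 2.5e-12 by Fisher's exact test). Mir877 and the capped genes thus stood in different proportion in the libraries, by 2.88-fold and 2.51-fold, and the capped pair differed by 1.14-fold. These two-sided tests compare 2 libraries and measure departure from counting noise only, not a difference between conditions. Mir877 is 1 mirtron, and no other pairs of genes were compared in this way. Over all tested genes the median log2 ratio between the libraries, without its sign, was 1.25 with TMM sizes.

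Between the libraries, each gene was compared with the TMM (trimmed mean of M values) library sizes by a two-sided exact binomial test, adjusted over 410 genes with at least 10 reads in total. A gene was called with an adjusted p under 0.05 and a difference of at least 2-fold. None of the 3 genes was called, while 17.6% of tested genes were called higher in replicate 2 and 36.1% lower. Mir320 had a log2 ratio of replicate 2 over replicate 1 of 0.90 (0.83 to 0.98), 1.87-fold, with an adjusted p of 8.3e-137 by the exact binomial test. The ratio of Mir484 was 0.71 (0.65 to 0.77), 1.63-fold, with an adjusted p of 2.9e-114 by the exact binomial test. For Mir877 it was −0.62 (−1.0 to −0.25), with an adjusted p of 0.00137 by the exact binomial test. All 3 adjusted p-values were under 0.05, as for 76.8% of genes tested, and all 3 differences were under 2-fold. The edgeR exact test gave log2 ratios of 0.90, 0.71 and −0.62 for Mir320, Mir484 and Mir877. Its dispersion came from this same pair of libraries and holds the difference being tested. Its p-values therefore cannot decide whether the 3 genes differ.

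With TMM sizes and without regard to sign, the ratios of the 3 genes were smaller than those of most tested genes. Their median log2 ratio was 0.71, against −0.33 over all tested genes. The median size of a log2 ratio without its sign was 1.25 over all tested genes. By that size Mir320 stood at 256 of 410 from the largest, Mir484 at 300 and Mir877 at 311. With the sign kept, the ratio of Mir320 was above that of 77.1% of tested genes, that of Mir484 above 71.5% and that of Mir877 above 45.6%.

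**Figure D3:**
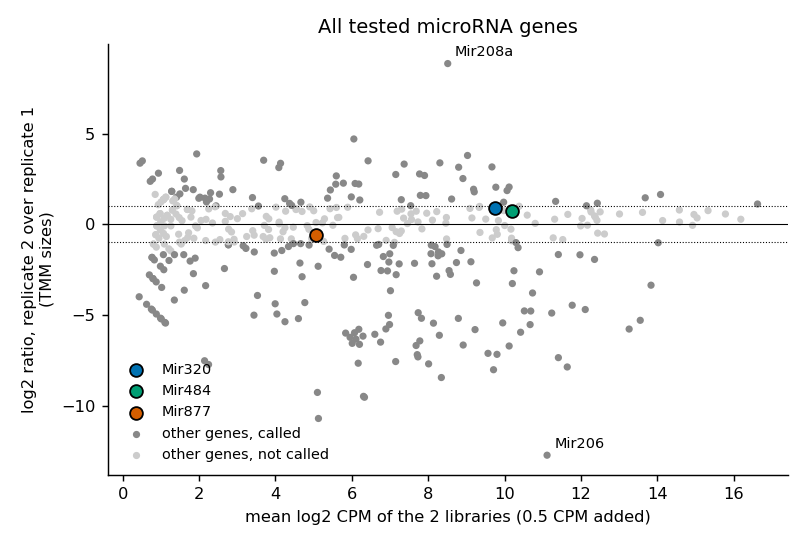
Log2 ratio of replicate 2 over replicate 1 with TMM sizes against the mean log2 CPM (0.5 CPM added), 1 point for each of 410 tested genes, dark where called. The 3 coloured genes lie between the dotted lines at 2-fold, at 0.90, 0.71 and −0.62, far from Mir206 and Mir208a.

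The call for the capped genes turned on the scaling. Mir206 and the imprinted microRNA genes between Dlk1 and Dio3, 68 genes in all, held 47.6% of the microRNA reads of replicate 1 and 0.976% of those of replicate 2. With total reads as library sizes Mir320 had a log2 ratio of 1.53 and Mir484 of 1.33, and both were called higher, with 32.9% of genes called higher and 28.0% lower. With DESeq2 size factors Mir320 was called at 1.18 and Mir484 was just under the threshold at 0.99, with 24.6% of genes called higher and 31.0% lower. With total reads after leaving those 68 genes out, the ratios were 0.61 and 0.42 and neither was called, with 13.4% of genes called higher and 42.4% lower. Calls that were higher made up 32.7% of all calls with TMM, 44.3% with DESeq2 size factors, 54.0% with total reads and 24.0% with the reduced total. Mir320 and Mir484 were above 0 under all 4 scalings.

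For Mir877 the interval reached 0 under some scalings. Its log2 ratio was −0.62 with TMM, −0.91 with the reduced total, −0.34 (−0.72 to 0.03) with DESeq2 sizes and 0.01 (−0.38 to 0.38) with total reads. For the last of these the adjusted p by the exact binomial test was 1, and for DESeq2 size factors it was 0.0925. It was called under none of the 4. Against TMM, the median over the 410 genes was shifted by 0.28 with DESeq2 size factors, by 0.63 with total reads and by −0.29 with the reduced total. Under each of them Mir877 lay below the capped genes by the log2 odds ratios given above.

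**Figure D4:**
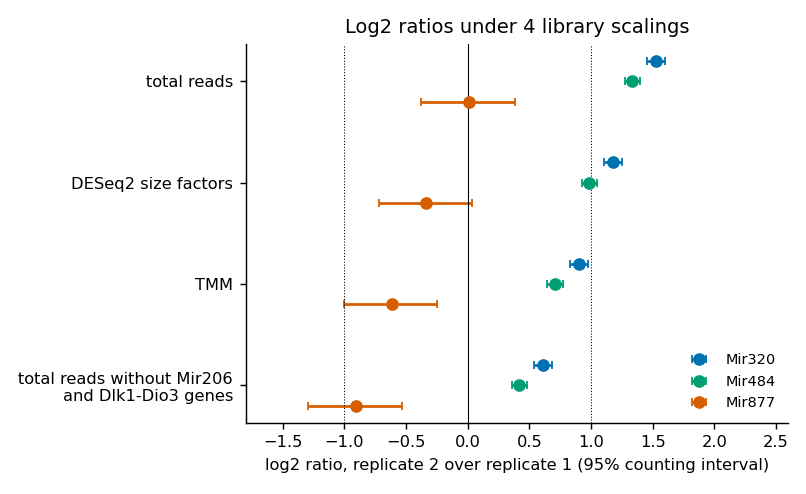
Log2 ratios of the 3 genes under 4 library scalings, with 95% counting intervals and dotted lines at 2-fold. Each scaling shifts all 3 by the same amount: Mir320 runs from 0.61 to 1.53, Mir484 from 0.42 to 1.33 and Mir877 from −0.91 to 0.01.

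Other genes with noncanonical processing went in both directions, as did the tested genes as a whole. The list of 9 held 5 mirtrons, 3 genes derived from small nucleolar RNAs and Mir451a, which Drosha cuts but Dicer does not. Of 8 tested, 2 were called higher in replicate 2 and 3 lower, against 17.6% and 36.1% of all genes. The list's median log2 ratio was −0.73.

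Of the 4 mirtrons tested, 3 were called lower and none higher, with a median log2 ratio of −1.65. Over all tested genes 36.1% were called lower and 17.6% higher. Mir1981, in intron 5 of Marc2, had 750 and 232 reads and a log2 ratio of −1.78 (−2.0 to −1.57). Mir3102 had 638 and 525 reads and was not called at −0.37 (−0.54 to −0.20), nearer to Mir877. Mir702 and Mir1982, with fewer reads, were called lower, and Mir1224 had 0 and 1 reads and was not tested. Mir702 lies inside Plod3 but coincides with no annotated intron, unlike the other mirtrons listed, so the annotation does not bear out its label. With total reads 2 of the 4 were called lower, against 28.0% of all tested genes, and the mirtron median was −1.03.

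Of the genes derived from other small RNAs, Mir1839 had 573 and 1006 reads and was not called at 0.72 (0.57 to 0.87). Mir664, inside a small nucleolar RNA gene, had 48 and 115 reads and was called higher at 1.15 (0.67 to 1.69). Mir1291 had 7 and 3 reads and was not called. The erythroid gene Mir451a had 864 and 2416 reads and was called higher at 1.39 (1.28 to 1.51).

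**Figure D5:**
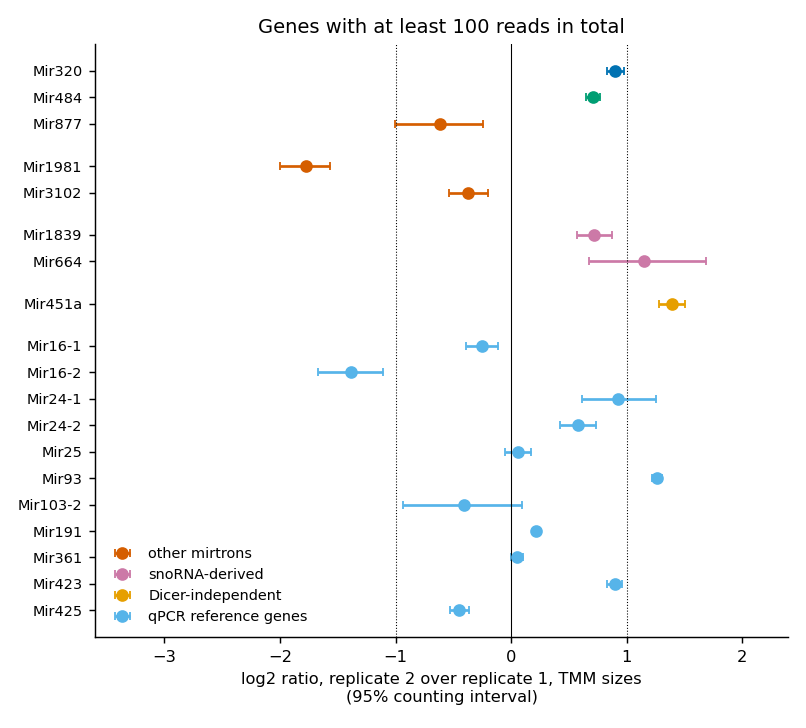
Log2 ratios of replicate 2 over replicate 1 with TMM sizes and 95% counting intervals for the 3 genes and for listed genes with at least 100 reads in total. The capped genes lie at 0.90 and 0.71, the mirtrons Mir877, Mir1981 and Mir3102 at −0.62, −1.78 and −0.37, and the qPCR reference genes on both sides of 0.

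Genes with the same placement in the genome as the 3 were then counted, by rules on the annotation set after these values were known. Of 2202 genes, 28 had a protein-coding start pointing the other way within 500 nt of their 5′ end. Among these, 25 had under 10 reads in total and 15 had none. Mir320 and Mir484 held 99.7% of the reads of this class in each library, 5540 of 5554 in replicate 1 and 10198 of 10224 in replicate 2. The third tested gene of the class was Mir1934, with 8 and 15 reads.

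The 21 genes that coincide with an annotated intron had 1794 reads in replicate 1 and 892 in replicate 2. Mir877 held 8.14% and 11.3% of these, and most of the rest came from Mir1981 and Mir3102. Of 8 tested, 5 were called lower and none higher, and total reads and DESeq2 size factors gave the same counts. This class is not separate from the mirtrons above. Mir1981, Mir1982 and Mir3102 were tested in both, Mir1981 and Mir1982 are among the calls of both, and Mir877 is itself in the class. The share of all tested genes called lower was 36.1% with TMM, 31.0% with DESeq2 sizes and 28.0% with total reads. Mir6944, in an intron of the actin-binding protein gene Dbn1, had 156 and 10 reads and a log2 ratio of −3.92 (−5.14 to −3.14). Mir6923, in intron 34 of 39 of the embryonic myosin gene Myh3, had 40 reads in replicate 1 and 0 in replicate 2, which allows up to 0.976 CPM. Of 16 of these genes with a RefSeq hairpin, 15 start with GU and end with AG. The rule picked genes with the ends of an intron, so this count was largely set in advance.

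MicroRNAs in common use as qPCR reference genes, a role also given to miR-484 and miR-320, were spread around 0. Of 12 tested, Mir93 was called higher at 1.26 and Mir16-2 lower at −1.38, with a median log2 ratio of 0.06. The shares over all tested genes were 17.6% higher and 36.1% lower. Mir191 stood at 0.22, Mir361 at 0.05, Mir25 at 0.06 and Mir425 at −0.45. Mir423 stood at 0.90, level with Mir320, and its hairpin lies 27 nt from the start of its host Nsrp1 on the same strand. The copies of Mir16, Mir24 and Mir103 share their mature sequences, so the counts of Mir16-1, Mir16-2, Mir24-1, Mir24-2, Mir103-1 and Mir103-2 are uncertain. With total reads 4 of the 12 were called higher and none lower, against 32.9% and 28.0% of all tested genes, and the median was 0.68.

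The genes most like each of the 3 were found by the distance between their log2 CPM values over 2 libraries, among 394 genes with reads in both. Mir145a of smooth muscle was nearest to Mir320, with 2196 and 4301 reads at a distance of 0.08, followed by Mir140 and Mir106b. Mir423 was nearest to Mir484, with 2998 and 5937 reads at a distance of 0.14, followed by Mir140 and Mir92-1. Snord43, a small nucleolar RNA locus annotated as a microRNA gene inside the ribosomal protein gene Rpl3, was nearest to Mir877, with 143 and 88 reads at a distance of 0.20. Mir378c and Mir193a followed. With only 2 values for each gene, such likeness is a description of these libraries.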

How the data were processed

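Per the labels, microRNA libraries were made from 2 gastrocnemius samples. Raw read counts per microRNA gene were deposited for each library, unstranded, sense and antisense in separate columns. The deposited file descriptions name mm10 and GENCODE M21. The aligner and trimming tool were not given in the sources used here. The 4 summary lines name no gene and were left out. In replicates 1 and 2 they held 9.97% and 8.60% unmapped, 35.7% and 45.1% multimapping and 2.05% and 3.83% unassigned reads. Columns of other samples numbered 0.

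Sense counts were used. CPM intervals are exact Clopper-Pearson 95% intervals. They cover counting error only, since no molecular identifiers are named. As a separate floor for flagging reads, a count of 0 was taken to allow 3 counts. Log2 ratios add a prior count of 1 and use TMM sizes (edgeR 4.0.16, R 4.3.3) from all genes with at least 10 reads in total. Each such gene had an exact binomial test with Benjamini-Hochberg adjustment across all genes tested. With 1 group of 2 libraries no quasi-likelihood test between conditions exists, and p-values measure only the spread that counting gives. The comparison was checked on simulated data. Those counts held counting noise only, so the check does not cover further spread between libraries. Alternatives were DESeq2 1.42.0 size factors, total reads, the unstranded column, a prior count of 0.5, minimum totals of 1 and 100 reads, the edgeR exact test and each library alone. The total without Mir206 and the genes between Dlk1 and Dio3 was added after seeing the data.

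The genes named are the 3, the 3 nearest to each by log2 CPM, 9 genes with noncanonical processing, 12 qPCR reference genes (values mainly for those with at least 100 reads in total), genes sharing a seed and genes within 10 kb. A list of 13 cell type markers was used to check the tissue. Mir6944, Mir6923 and Mir1934 were picked with their values in view. The members and lists were chosen with earlier results of these data known. Python 3.11.15 and scipy 1.17.1 were used.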

Additional observations from a re-analysis of the deposited data

Results flagged for a closer look

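Mir24-1, one of the qPCR reference genes, had reads on the strand opposite to its own, in a column that the comparisons did not use. These numbered 44 in replicate 1 and 58 in replicate 2, above the 3 counts that a count of 0 allows. Mir3074-1 is annotated on that strand and spans the whole of Mir24-1, so such reads are sense reads of Mir3074-1. That gene was itself among those tested, with a log2 ratio of 0.30 with TMM sizes, and was not called.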

How the results depend on the processing

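With DESeq2 size factors the log2 ratio of Mir320 was 1.18, with total reads 1.53 and with the unstranded column 1.07, and it was called higher in each. With total reads Mir484 was called at 1.33 and the ratio of Mir877 was 0.00974, with an interval that spans 0, against −0.62. The mean level of Mir877 was 41.5 CPM with the unstranded column, whose library totals are smaller, against 32.8 CPM. The means of Mir320 and Mir484 rose as well, to 1308 and 1707 CPM against 987 and 1294 CPM. Genes called higher numbered 72 and became 135 with total reads and 45 with at least 100 reads in total, where fewer genes were tested. With the edgeR exact test and the pooled dispersion of the pair (1.23), 0 genes were higher and 0 lower, and 28 of 410 had an unadjusted p under 0.05. That dispersion includes the difference between the libraries. Genes called lower numbered 148, and from 113 to 174 under the settings other than the edgeR exact test.

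Leaving out 1 library gave mean levels of 508 and 1465 CPM for Mir320, 735 and 1853 CPM for Mir484, and 32.7 and 32.9 CPM for Mir877. No log2 ratio exists for 1 library. No paired analysis was possible because the labels give 1 group. The cause of the shifts with scaling was not tested. At 146 and 101 reads, the interval of the Mir877 ratio spans 0.76 on the log2 scale, against 0.15 for Mir320.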
